A study of Homo sapiens with 12 samples.

Results

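Claudins, connexins and the proteins of desmosomes and tight junctions build the contacts between epithelial cells. Their genes were followed here in MDA-MB-468, an established human cell line from a triple-negative breast cancer of the basal type, after inhibition of the kinase AKT, of the histone methyltransferase EZH2, or of both. Members were all genes of the count tables whose symbol is that of a claudin (CLDN), a connexin of the GJA, GJB or GJC families, a desmoglein (DSG), a desmocollin (DSC), a plakophilin (PKP) or a zonula occludens protein (TJP), together with DSP, JUP, OCLN, F11R and MARVELD2. This rule, which used no measured value, took 59 of 23228 genes. They comprised 23 claudins, 3 other tight junction membrane proteins, 3 zonula occludens proteins, 17 connexins, 7 desmosomal cadherins and 6 proteins of the desmosomal plaque.

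Poly(A) RNA was sequenced from 4 groups of 3 libraries, lettered A to C. One group received ipatasertib, an inhibitor of AKT, at 5 µM from day 0, after culture in the solvent DMSO from day -5. Another received tazemetostat, an inhibitor of EZH2, at 5 µM from day -5. The combination group had tazemetostat from day -5 and ipatasertib from day 0, and the control group had DMSO throughout. All cells were passaged during those days, were moved to medium with 2% FBS on day 0 and were collected 24 h later, so the exposure to the drugs differed in length. The labels do not say whether the 3 libraries of a group came from separate cultures, so p-values speak only of the spread among the libraries at hand, which may be technical. Everything here describes 1 cell line.

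Genes received 18926477 to 25468348 counts per library with ipatasertib, 19023947 to 26070000 counts with tazemetostat and 12981622 to 17948209 counts with the combination, against 22682755 to 28746965 with DMSO. At these depths 3 counts correspond to 0.106 to 0.228 CPM (read counts scaled by library size), a limit that covers counting error only. Reads assigned to no gene took 36 to 37.3% of the counted reads with ipatasertib, 32.8 to 34.8% of them with tazemetostat and 36.8 to 39.5% of them with the combination, against 32 to 35.4% with DMSO, and their part in the results was not tested. The A library of each group stood apart from B and C, with a chi-square per degree of freedom of 4.36 to 15.5 against 2.41 to 3.61 between B and C. Of 8 markers of breast epithelium all had reads in every group, and their summed level was 7935 to 8054 CPM with ipatasertib, 7960.2 to 8109 CPM with tazemetostat and 6904 to 7716 CPM with the combination, against 8134 to 8729 CPM with DMSO. Single markers moved in different directions within that sum: EGFR averaged 2257 ± 324 CPM with ipatasertib, 1248 ± 93.3 CPM with tazemetostat and 2243 ± 192 CPM with the combination, against 1065 ± 52.8 CPM with DMSO (SD, n = 3 each), KRT19 1480 ± 94.7 CPM with ipatasertib, 2537 ± 45.1 CPM with tazemetostat and 1212 ± 89.7 CPM with the combination, against 2706 ± 96.1 CPM with DMSO, and MUC1 61.8 ± 1.97 CPM with ipatasertib, 182 ± 8.65 CPM with tazemetostat and 64 ± 5.33 CPM with the combination, against 114 ± 5.1 CPM with DMSO. In bulk RNA, fewer cells that express a gene and less RNA of it per cell cannot be told apart.

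Tight junctions seal the space between neighbouring epithelial cells. Claudins form their strands and set which ions pass, occludin (OCLN) and tricellulin (MARVELD2) belong to the same membrane complex, and the zonula occludens scaffolds, such as TJP1 and TJP3, tie that complex to actin. Connexins assemble into gap junction channels through which small molecules pass between cells. Desmosomes hold cells together mechanically: desmogleins and desmocollins bridge the gap, and plakoglobin (JUP), plakophilins and desmoplakin (DSP) anchor them to keratin filaments. In the mammary gland tight junctions seal the luminal layer, and desmosomes hold cells together within and between the luminal and basal layers.

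Of the 59 members, 40 passed the filter on low counts and were tested, and 19 were not. The tested members were 13 claudins, 6 other tight junction proteins, 11 connexins, 4 desmosomal cadherins and all 6 plaque proteins. No read in any library fell on CLDN19, CLDN22, CLDN25, GJA9, GJA10 or GJB6. A further 12 untested members, CLDN5, CLDN6, CLDN14, CLDN17, CLDN18, CLDN20, CLDN24, DSG1, DSG3, DSG4, GJA4 and GJB1, had between 1 and 72 counts summed over the 12 libraries. A member could pass the filter through 1 group alone, as GJA1 did through the groups given tazemetostat, so counts over the tested members do not stand for all 59. CLDN6 and CLDN9, and likewise CLDN22 and CLDN24, are close copies whose counts are uncertain, and no source used here says how strand was handled in counting, so reads of overlapping or antisense genes cannot be told apart.

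To compare levels between genes, the mean CPM over the 12 libraries was divided by the length of annotated exon sequence. On this scale desmoplakin was highest, at 114 CPM per kb, followed by CLDN7 at 97.7, JUP at 89, the junctional adhesion molecule F11R at 72 and CLDN1 at 68.8 CPM per kb. CLDN8, PKP4, CLDN3 and CLDN4 followed at 39, 33.5, 32.4 and 31.2 CPM per kb. CLDN3, CLDN4 and CLDN7 are claudins of simple glandular epithelium. The connexins lay lower: GJA5 reached 12.8 CPM per kb, GJB5 7.81 and GJC1 3.8. Of the plakophilins, PKP1, known from stratified epithelium, was at 0.0669 CPM per kb and thus far below PKP2, PKP3 and PKP4. CLDN1 shows how the order depended on treatment, with 61.4 CPM per kb with ipatasertib, 54.1 CPM per kb with tazemetostat and 116 CPM per kb with the combination, against 43 with DMSO.

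**Figure D1:**
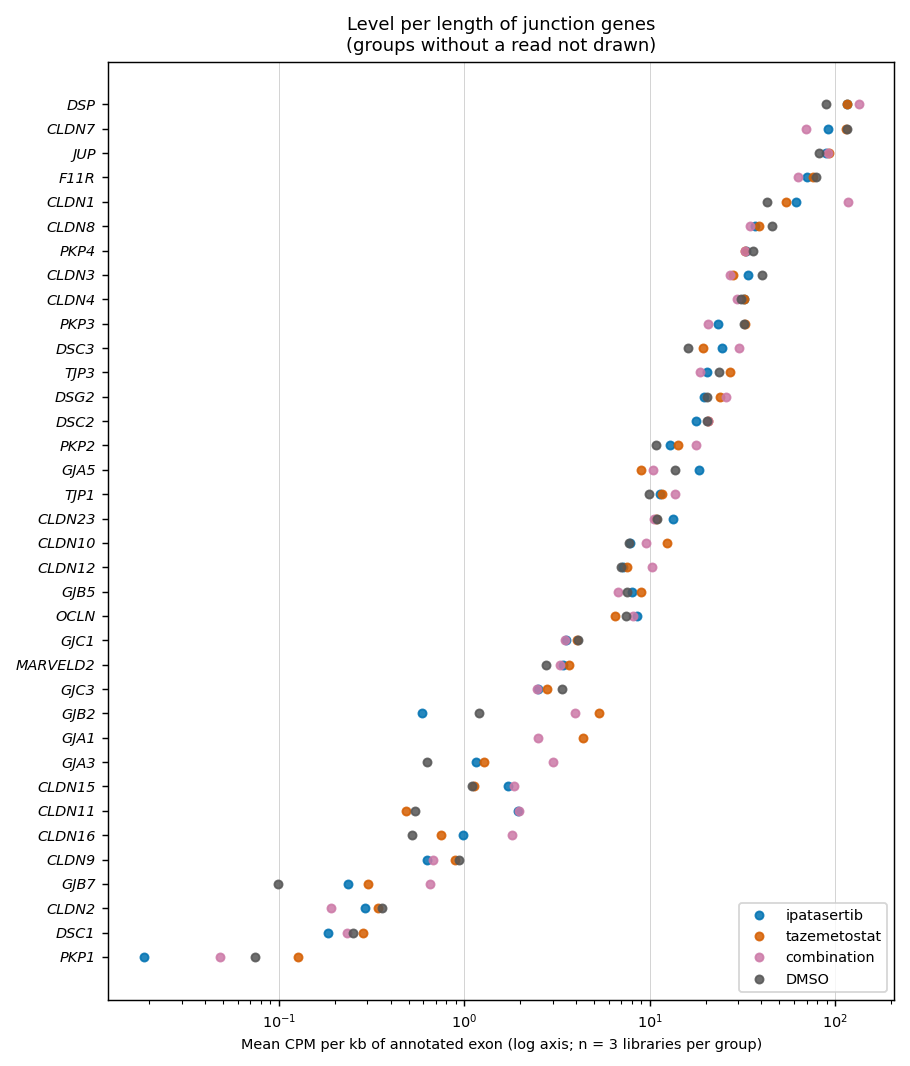
Mean level of 36 of the 40 tested members in CPM per kb of annotated exon (log axis), 1 row per gene in the order of the mean over all libraries, with a point for each of the 4 groups of 3 libraries. Desmoplakin and CLDN7 stand at the top with 114 and 97.7 CPM per kb over all libraries, and GJA1 has no point for ipatasertib or DMSO because it had no read there.

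All members together took 3848 to 3996 CPM with ipatasertib, 4013 to 4098 CPM with tazemetostat and 4307 to 4457 CPM with the combination, against 3591 to 3655 CPM with DMSO. These ranges did not overlap between any of the 4 groups. DSP alone averaged 1138.1 CPM with ipatasertib, 1130.2 CPM with tazemetostat and 1310.2 CPM with the combination, against 876.5 CPM with DMSO. This 1 gene thus carried a large part of the differences from DMSO, and the members without DSP were not summed. The desmosomal plaque, which is mostly DSP, summed to 1787 ± 65.7 CPM with ipatasertib, 1822 ± 68.6 CPM with tazemetostat and 1982 ± 48.1 CPM with the combination, against 1533 ± 12.4 CPM with DMSO (SD, n = 3 each). The claudins summed to 751 ± 29.5 CPM with ipatasertib, 776 ± 10.1 CPM with tazemetostat and 889 ± 11.5 CPM with the combination, against 748 ± 4.96 CPM with DMSO. For the claudins the combination libraries spanned 876 to 897 CPM, above the 742 to 752 CPM with DMSO, while the ipatasertib libraries overlapped those of DMSO. Connexins summed to 129 ± 1.78 CPM with ipatasertib, 132 ± 5.33 CPM with tazemetostat and 128 ± 2.33 CPM with the combination, against 116 ± 3.95 CPM with DMSO, while single connexins moved in opposite directions, as given below.

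Each gene was compared between groups with edgeR's quasi-likelihood test and Benjamini-Hochberg adjustment over 14571 genes, and called where the adjusted p was under 0.05. With ipatasertib, 22 of the 40 tested members were called against DMSO (55%), 14 higher and 8 lower, beside 47.1% of all genes tested (24% higher, 23.1% lower). Tazemetostat gave 20 calls (50%), 16 higher and 4 lower, beside 47.2% of all genes (25.9% higher, 21.3% lower). The combination gave 27 calls (67.5%), 18 higher and 9 lower, beside 64.4% of all genes (34.4% higher, 30% lower). The total shares of members called thus lay near those of all genes, and they are no result about the family as such. By direction, 35% of members were higher and 20% lower with ipatasertib, 40% and 10% with tazemetostat, and 45% and 22.5% with the combination. Whether this split departs from that of all genes was not tested. Median log2 fold changes of the tested members were 0.04 for ipatasertib, 0.17 for tazemetostat and 0.09 for the combination, beside 0, 0.01 and 0.03 over all genes. Without DMSO C, 2 members were called lower with tazemetostat in place of 4. When libraries were scaled to their totals, the calls over all genes with tazemetostat split into 4573 higher and 2159 lower, in place of 3775 and 3099.

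By family, the claudins had 5 members called higher and 2 lower with ipatasertib, 2 and 2 with tazemetostat, and 6 and 4 with the combination. As shares of the 13 tested claudins, 53.8%, 30.8% and 76.9% were called in the 3 comparisons, beside the 47.1%, 47.2% and 64.4% of all genes. Connexins had 4 higher and 1 lower with ipatasertib, 5 and 1 with tazemetostat, and 5 and 2 with the combination, which are 45.5%, 54.5% and 63.6% of the 11 tested. Of the zonula occludens genes, TJP1 was called higher with each treatment and TJP3 in either direction. Among the desmosomal cadherins 1 member was higher and 1 lower with ipatasertib, and 2 were higher with tazemetostat and 2 with the combination. These are 50% of the 4 tested in each comparison. The plaque proteins had 2 higher and 2 lower with ipatasertib, 3 and 1 with tazemetostat, and 3 and 1 with the combination, or 66.7% of the 6 in each. Of the calls against DMSO, 15 of 22 with ipatasertib, 11 of 20 with tazemetostat and 24 of 27 with the combination held under every alternative tried, and the calls that ended are given where their gene is described. The 3 comparisons share the DMSO libraries, so agreement among them is not independent.

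**Figure D2:**
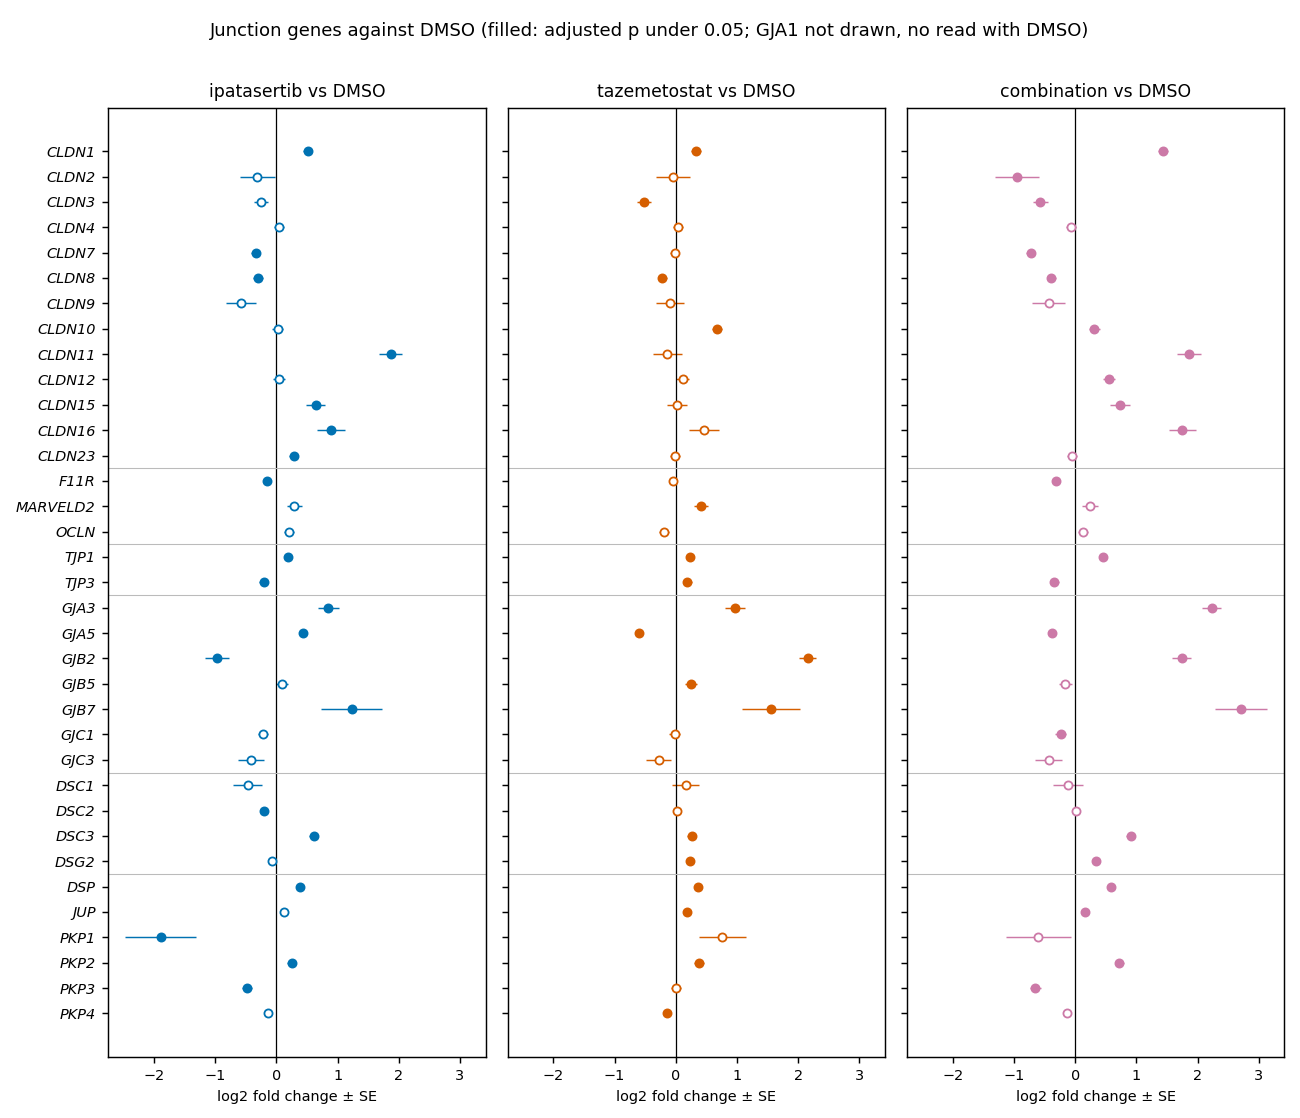
Log2 fold change against DMSO with its standard error for 35 tested members, 1 panel per treatment, grouped from the top into claudins, other tight junction membrane proteins, zonula occludens proteins, connexins, desmosomal cadherins and plaque proteins; filled points have an adjusted p under 0.05. GJB2 lies at -0.97 with ipatasertib and at 2.16 with tazemetostat, and CLDN1 at 0.51, 0.33 and 1.44 in the 3 panels; GJA1 is not drawn because it had no read with DMSO.

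CLDN1, a claudin that seals the barrier in skin and other epithelia, was the claudin whose level rose most in CPM. CLDN1 had 198, 222 and 221 CPM with ipatasertib, 209, 173 and 183 CPM with tazemetostat and 368, 426 and 423 CPM with the combination, against 150, 147 and 152 CPM with DMSO. Each treatment lay above DMSO in all 3 libraries, and the combination lay above either drug alone without overlap. It rose 1.43-fold with ipatasertib (log2 fold change 0.51 ± 0.077, edgeR adjusted p = 1.11e-05), 1.26-fold with tazemetostat (log2 fold change 0.33 ± 0.077, edgeR adjusted p = 0.00124) and 2.71-fold with the combination (log2 fold change 1.44 ± 0.078, edgeR adjusted p = 5.23e-13). Against ipatasertib alone the combination was higher by 0.92 ± 0.077 on the log2 scale (edgeR adjusted p = 1.75e-09), and against tazemetostat alone by 1.11 ± 0.077 (edgeR adjusted p = 1.45e-10).

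CLDN7, a claudin of glandular and mammary epithelium, moved the other way and fell where ipatasertib was present. CLDN7 had 193, 172 and 198 CPM with ipatasertib, 218, 248 and 240.4 CPM with tazemetostat and 157, 138 and 136 CPM with the combination, against 242, 237 and 236 CPM with DMSO. The ipatasertib and combination libraries all lay below those of DMSO, the combination lowest, whereas tazemetostat alone overlapped DMSO. CLDN7 fell with ipatasertib (log2 fold change -0.34 ± 0.072, edgeR adjusted p = 0.000539) and with the combination (log2 fold change -0.73 ± 0.074, edgeR adjusted p = 1.66e-08), and its value with tazemetostat was -0.02 ± 0.072 (edgeR adjusted p = 0.882). The combination was also lower than ipatasertib alone (log2 fold change -0.39 ± 0.074, edgeR adjusted p = 0.000188).

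One RefSeq start of CLDN7 is shown because its upstream window holds the most matches to the E-box CACCTG, read on both strands, among the windows of members, at 4. This window covers the 250 bases before the start at chr17:7262479-7262728 of GRCh38.p14 on the minus strand, written 5′ to 3′ with the matches in capitals.
CLDN7: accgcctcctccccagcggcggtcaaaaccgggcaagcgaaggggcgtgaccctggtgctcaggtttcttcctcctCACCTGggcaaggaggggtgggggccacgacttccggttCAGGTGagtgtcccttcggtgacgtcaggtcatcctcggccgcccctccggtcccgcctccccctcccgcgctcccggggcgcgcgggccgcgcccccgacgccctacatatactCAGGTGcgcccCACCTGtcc
The window of another CLDN7 start, at chr17:7263214-7263463, holds 0 such matches, and which start these cells use was not tested. At least 1 such match lay in 14 of 57 windows of the 40 members in the RefSeq table (24.6%), beside 17.5% of all 35116 windows. The forkhead letters TGTTTAC lay in 2 member windows (3.51%, beside 2.98% of all), and the grainyhead letters AACCGGT in none (0.626% of all); a match is a description of the letters only.

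CLDN11, the claudin of myelin and of the Sertoli cell barrier in testis, was higher in both groups that received ipatasertib. CLDN11 had 4.09, 3.36 and 5.2 CPM with ipatasertib, 0.943, 1.01 and 1.21 CPM with tazemetostat and 4.04, 4.17 and 4.53 CPM with the combination, against 1.1, 1.23 and 1.19 CPM with DMSO. Both groups with ipatasertib lay well above DMSO and above tazemetostat, which overlapped DMSO. CLDN11 rose 3.65-fold with ipatasertib (log2 fold change 1.87 ± 0.19, edgeR adjusted p = 5.34e-08) and 3.62-fold with the combination (log2 fold change 1.86 ± 0.2, edgeR adjusted p = 3.62e-08), with -0.14 ± 0.24 for tazemetostat (edgeR adjusted p = 0.651). Between the combination and ipatasertib the log2 difference was -0.01 ± 0.16 (edgeR adjusted p = 0.965).

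CLDN16, known for magnesium reabsorption in the kidney, was a low transcript that was highest with both drugs. CLDN16 had 2.57, 3.36 and 3.67 CPM with ipatasertib, 3.3, 2.05 and 1.95 CPM with tazemetostat and 5.15, 5.08 and 7.39 CPM with the combination, against 2.16, 1.5 and 1.48 CPM with DMSO. The combination lay above every other library, ipatasertib lay above DMSO, and tazemetostat overlapped DMSO. CLDN16 rose with ipatasertib (log2 fold change 0.89 ± 0.23, edgeR adjusted p = 0.0027) and with the combination (log2 fold change 1.75 ± 0.22, edgeR adjusted p = 3.59e-07), and its value with tazemetostat was 0.46 ± 0.24 (edgeR adjusted p = 0.116). The combination exceeded ipatasertib alone by 0.87 ± 0.2 on the log2 scale (edgeR adjusted p = 0.00133).

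The other claudins typical of glandular epithelium, CLDN3 and CLDN4, and the kidney and gland claudin CLDN8 were called higher in none of the treated groups. CLDN4 had 133, 129 and 142 CPM with ipatasertib, 122, 139.6 and 141 CPM with tazemetostat and 139.7, 111 and 123 CPM with the combination, against 134, 132 and 126 CPM with DMSO. These libraries overlapped throughout, and the log2 fold changes of CLDN4 lay between -0.07 and 0.04 with edgeR adjusted p of at least 0.458. CLDN3 averaged 43.1 ± 8.47 CPM with ipatasertib, 35.8 ± 2.36 CPM with tazemetostat and 34.4 ± 4.77 CPM with the combination, against 51.3 ± 4.22 CPM with DMSO (SD, n = 3 each). It fell with tazemetostat (log2 fold change -0.52 ± 0.11, edgeR adjusted p = 0.000749) and with the combination (log2 fold change -0.57 ± 0.12, edgeR adjusted p = 0.000209), and with ipatasertib its value was -0.25 ± 0.11 (edgeR adjusted p = 0.0749). CLDN8 averaged 76.5 ± 3.37 CPM with ipatasertib, 80.8 ± 8.34 CPM with tazemetostat and 71.8 ± 4.44 CPM with the combination, against 93.9 ± 3.16 CPM with DMSO. It fell with all treatments, by log2 fold changes of -0.30, -0.22 and -0.39 (edgeR adjusted p = 0.00259, 0.0202 and 0.000142). The call of CLDN8 with tazemetostat ended without tazemetostat B or DMSO C, and with scaling to library totals (adjusted p from 8.41e-05 to 0.0996 over the alternatives).

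Among the remaining claudins, CLDN10, an ion pore of kidney and sweat gland, was highest with tazemetostat. It averaged 26.4 ± 1.58 CPM with ipatasertib, 41.7 ± 3.51 CPM with tazemetostat and 32.4 ± 2.12 CPM with the combination, against 26.1 ± 2.12 CPM with DMSO, and rose with tazemetostat (log2 fold change 0.67 ± 0.085, edgeR adjusted p = 1.11e-06) and with the combination (log2 fold change 0.31 ± 0.088, edgeR adjusted p = 0.00416). CLDN15, a cation pore of the intestine, rose with ipatasertib (log2 fold change 0.64 ± 0.15, edgeR adjusted p = 0.00147) and with the combination (0.73 ± 0.16, adjusted p = 0.000431). CLDN12, which lacks the C-terminal motif by which most claudins bind the scaffolds, rose with the combination (log2 fold change 0.55 ± 0.1, edgeR adjusted p = 5.78e-05), with 0.04 for ipatasertib and 0.11 for tazemetostat. CLDN23 rose with ipatasertib by 0.28 ± 0.079 (edgeR adjusted p = 0.00521), with -0.01 and -0.05 for tazemetostat and the combination. CLDN2, the cation and water pore of leaky epithelia, was near 1 CPM and fell with the combination (log2 fold change -0.95 ± 0.36, edgeR adjusted p = 0.024). The call of CLDN2 ended without combination A or DMSO A, and with the A libraries left out (adjusted p from 0.00679 to 0.275 over the alternatives). CLDN9 had log2 fold changes of -0.58, -0.09 and -0.43, none of them called.

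Of the other tight junction membrane genes, F11R, an adhesion molecule of the immunoglobulin family, was lower in both groups with ipatasertib. F11R had 336, 338 and 344 CPM with ipatasertib, 374, 365 and 365 CPM with tazemetostat and 316, 291 and 308 CPM with the combination, against 362, 384 and 393 CPM with DMSO. All ipatasertib and combination libraries lay below those of DMSO, and the tazemetostat libraries overlapped them. F11R fell with ipatasertib (log2 fold change -0.16 ± 0.06, edgeR adjusted p = 0.0289) and with the combination (log2 fold change -0.32 ± 0.06, edgeR adjusted p = 8.24e-05). With the replicate letter as a block the ipatasertib value was -0.16 with an adjusted p of 0.0627. The ipatasertib call ended without ipatasertib B, DMSO B or DMSO C, and with scaling to library totals or the replicate letter as a block (adjusted p from 0.00175 to 0.117 over the alternatives).

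Occludin and tricellulin showed smaller differences. MARVELD2, which seals the corners where cells meet, averaged 16.6 ± 1.95 CPM with ipatasertib, 18 ± 1.55 CPM with tazemetostat and 16 ± 3.06 CPM with the combination, against 13.5 ± 1.79 CPM with DMSO (SD, n = 3 each) and rose with tazemetostat (log2 fold change 0.41 ± 0.12, edgeR adjusted p = 0.00764). This call ended without DMSO C (adjusted p from 3.13e-05 to 0.0586 over the alternatives). OCLN averaged 55.9 ± 3.07 CPM with ipatasertib, 42.5 ± 2.64 CPM with tazemetostat and 53.1 ± 5.67 CPM with the combination, against 48.5 ± 4.28 CPM with DMSO, with log2 fold changes of 0.20, -0.19 and 0.13 that were not called (edgeR adjusted p = 0.0532, 0.0664 and 0.203). The combination was higher than tazemetostat alone for OCLN (log2 fold change 0.32 ± 0.087, edgeR adjusted p = 0.00451).

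The zonula occludens scaffold TJP1 rose with each treatment, most with both drugs. TJP1 had 121, 105 and 106 CPM with ipatasertib, 108, 115 and 115 CPM with tazemetostat and 130.3, 134 and 136 CPM with the combination, against 97.3, 95.9 and 96.4 CPM with DMSO. Every treated library lay above every DMSO library, and the combination also lay above each single drug. TJP1 rose with ipatasertib (log2 fold change 0.19 ± 0.067, edgeR adjusted p = 0.0207), tazemetostat (log2 fold change 0.23 ± 0.067, edgeR adjusted p = 0.0079) and the combination (log2 fold change 0.46 ± 0.067, edgeR adjusted p = 2.85e-06). The TJP1 call with ipatasertib ended without ipatasertib A, DMSO B or DMSO C, and with the A libraries left out (adjusted p from 0.00785 to 0.211 over the alternatives). The one with tazemetostat ended without tazemetostat B or tazemetostat C (adjusted p from 0.000144 to 0.0588 over the alternatives).

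TJP3, a scaffold found mainly in epithelial cells, differed in direction between the drugs. TJP3 had 71.5, 70.9 and 76.2 CPM with ipatasertib, 85.7, 103 and 101 CPM with tazemetostat and 72.4, 60.9 and 66.4 CPM with the combination, against 83.1, 86.5 and 83.9 CPM with DMSO. Ipatasertib and the combination lay below DMSO, and 2 of the 3 tazemetostat libraries lay above it. TJP3 fell with ipatasertib (log2 fold change -0.21 ± 0.077, edgeR adjusted p = 0.0277) and with the combination (log2 fold change -0.34 ± 0.079, edgeR adjusted p = 0.000669), and rose with tazemetostat (log2 fold change 0.19 ± 0.076, edgeR adjusted p = 0.0419). The combination was lower than tazemetostat alone, with a log2 fold change of -0.53 ± 0.079 (edgeR adjusted p = 9.05e-06). The ipatasertib call ended without ipatasertib A, ipatasertib B, DMSO B or DMSO C, and with scaling to library totals (adjusted p from 0.00314 to 0.0848 over the alternatives). The tazemetostat call ended without ipatasertib A, ipatasertib B, ipatasertib C, tazemetostat B, tazemetostat C, DMSO A, DMSO B or DMSO C, and with no filter, the replicate letter as a block or DESeq2 (adjusted p from 0.000427 to 0.231 over the alternatives).

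Among the connexins, GJA1, GJB2 and GJA3 had the largest changes of those whose mean reached at least 5 CPM in a group. The 250 bases before their RefSeq starts (GRCh38.p14) are shown because their content of CpG dinucleotides, in capitals, differs widely. The GJA1 window lies at chr6:121435396-121435645 on the plus strand, the GJB2 window at chr13:20192939-20193188 and the GJA3 window at chr13:20161053-20161302, both on the minus strand, each written 5′ to 3′.
GJA1: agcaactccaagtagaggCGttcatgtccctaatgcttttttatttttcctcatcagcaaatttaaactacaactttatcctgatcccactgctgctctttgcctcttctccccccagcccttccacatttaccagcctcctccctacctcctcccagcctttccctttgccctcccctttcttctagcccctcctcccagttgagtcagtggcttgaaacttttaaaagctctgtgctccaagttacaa
GJB2: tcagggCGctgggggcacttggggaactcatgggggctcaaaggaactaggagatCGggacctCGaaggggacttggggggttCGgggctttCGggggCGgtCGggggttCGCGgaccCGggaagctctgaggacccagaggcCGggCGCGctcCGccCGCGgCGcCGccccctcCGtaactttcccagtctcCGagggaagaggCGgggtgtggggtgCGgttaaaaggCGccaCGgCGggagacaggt
GJA3: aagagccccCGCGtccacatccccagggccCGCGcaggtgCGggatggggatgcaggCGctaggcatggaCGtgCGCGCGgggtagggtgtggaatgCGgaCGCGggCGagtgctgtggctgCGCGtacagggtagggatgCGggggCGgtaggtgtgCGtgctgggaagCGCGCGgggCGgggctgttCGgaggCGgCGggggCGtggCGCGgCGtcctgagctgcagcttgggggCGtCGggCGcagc
The GJA1 window holds 1 CpG, the GJB2 window 25 and the GJA3 window 33, beside a median of 11 over all windows of the table. The ratio of observed to expected CpG was 0.0947 for GJA1, at percentile 10.1 of all windows, 0.869 for GJB2 at percentile 77.9 and 1.06 for GJA3 at percentile 95.5. The data at hand hold RNA levels only.

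GJA1, the most widely expressed connexin of the body, was present in the groups given tazemetostat, whereas no ipatasertib or DMSO library held a read of it. It had 15.1, 13.6 and 16 CPM with tazemetostat and 7.65, 9.4 and 8.29 CPM with the combination. These are 1038 counts over the 3 tazemetostat libraries and 381 over those of the combination. A count of 0 over the group allows up to 0.0447 CPM with ipatasertib and 0.0389 CPM with DMSO, taking 3 counts over the 3 libraries as the limit. Against that limit GJA1 was at least 382-fold higher with tazemetostat and at least 215-fold higher with the combination than with DMSO (edgeR adjusted p = 2.14e-14 and 1.93e-13). The combination was at least 187-fold higher than ipatasertib alone (edgeR adjusted p = 8.16e-13). GJA1 passed the filter on low counts only through the groups in which it was high. Its p-values are therefore no separate support beside the counts. The libraries of the combination all lay below those of tazemetostat alone (log2 fold change -0.83 ± 0.12, edgeR adjusted p = 2.28e-05).

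Fibroblasts express much GJA1, so their markers are given beside it. The summed level of 7 fibroblast markers was 5.23 to 5.53 CPM with ipatasertib, 15.7 to 19.3 CPM with tazemetostat and 9.48 to 11.5 CPM with the combination, against 9.72 to 11.7 CPM with DMSO. Of the 7, 4 had a read with ipatasertib, 6 with tazemetostat, 7 with the combination and 3 with DMSO. COL1A1, which made up most of the sum, averaged 5.16 ± 0.173 CPM with ipatasertib, 14.4 ± 1.82 CPM with tazemetostat and 8.28 ± 0.867 CPM with the combination, against 10.7 ± 0.999 CPM with DMSO (SD, n = 3 each). LUM and DCN, like GJA1, had no read with ipatasertib or DMSO: LUM was at 2.3 ± 0.0144 CPM with tazemetostat and 1.84 ± 0.641 CPM with the combination (edgeR adjusted p = 3.77e-09 and 1.06e-08 against DMSO), and DCN, which was too low to be tested, was at 0.329 ± 0.0398 and 0.141 ± 0.0861 CPM. COL3A1, also untested, was at 0.0895 ± 0.0402 CPM with ipatasertib, 0.45 ± 0.135 CPM with tazemetostat and 0.256 ± 0.0666 CPM with the combination, against 0.0635 ± 0.0157 CPM with DMSO. COL1A2 and PDGFRB were at 0.0263 ± 0.0229 and 0.1 ± 0.015 CPM with tazemetostat, where THY1 had no read. LUM, like GJA1, passed the filter on low counts only through the groups given tazemetostat. The part of other cells in the GJA1 values was not tested.

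GJB2, the connexin of cochlea, skin and luminal mammary cells, was lower with ipatasertib and much higher with tazemetostat. GJB2 had 1.39, 1.17 and 1.93 CPM with ipatasertib, 15.1, 12.9 and 12.6 CPM with tazemetostat and 9.64, 9.71 and 10.9 CPM with the combination, against 2.48, 3.82 and 2.85 CPM with DMSO. No 2 of these 4 groups overlapped, and ipatasertib was lowest and tazemetostat highest. GJB2 fell with ipatasertib (log2 fold change -0.97 ± 0.2, edgeR adjusted p = 0.00042), and it rose 4.47-fold with tazemetostat (log2 fold change 2.16 ± 0.14, edgeR adjusted p = 5.10e-11) and 3.34-fold with the combination (log2 fold change 1.74 ± 0.16, edgeR adjusted p = 2.33e-09). Set against ipatasertib alone, the combination was 6.55-fold higher (log2 fold change 2.71 ± 0.18, edgeR adjusted p = 3.60e-11), and against tazemetostat alone it was lower (log2 fold change -0.42 ± 0.13, edgeR adjusted p = 0.0117). The last call ended with the A libraries left out (adjusted p from 0.00148 to 0.053 over the alternatives).

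GJA3, a connexin of the eye lens, rose with each drug and most with both. GJA3 had 6.32, 5.5 and 6.31 CPM with ipatasertib, 7.55, 5.68 and 6.69 CPM with tazemetostat and 16.6, 15.5 and 15 CPM with the combination, against 4.01, 2.13 and 3.74 CPM with DMSO. The groups of each treatment lay above DMSO, and the combination lay above both single drugs. The rise was 1.81-fold with ipatasertib (log2 fold change 0.85 ± 0.17, edgeR adjusted p = 0.000231), 1.96-fold with tazemetostat (log2 fold change 0.97 ± 0.16, edgeR adjusted p = 4.74e-05) and 4.69-fold with the combination (log2 fold change 2.23 ± 0.15, edgeR adjusted p = 3.85e-11). On the log2 scale the combination exceeded ipatasertib by 1.38 ± 0.15 and tazemetostat by 1.26 ± 0.14 (edgeR adjusted p = 8.35e-08 and 2.95e-07).

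GJA5, a connexin of the atrium and of arterial endothelium, was the connexin with the highest level per kb and was higher with ipatasertib and lower with tazemetostat. GJA5 had 58.1, 64 and 59.1 CPM with ipatasertib, 28.3, 31.1 and 28.8 CPM with tazemetostat and 34.1, 34.4 and 34.6 CPM with the combination, against 44.4, 44 and 45.5 CPM with DMSO. Ipatasertib lay above DMSO, and tazemetostat and the combination lay below it, without overlap. GJA5 rose with ipatasertib (log2 fold change 0.43 ± 0.069, edgeR adjusted p = 2.10e-05) and fell with tazemetostat (log2 fold change -0.60 ± 0.071, edgeR adjusted p = 4.07e-07) and with the combination (log2 fold change -0.38 ± 0.072, edgeR adjusted p = 9.22e-05). Of the endothelial markers, 6 in all, the sum was 30 to 31.6 CPM with ipatasertib, 13.3 to 16.2 CPM with tazemetostat and 22 to 24 CPM with the combination, against 20.6 to 21 CPM with DMSO. KDR made up most of it, at 29.3 ± 0.703 CPM with ipatasertib, 13.6 ± 1.36 CPM with tazemetostat and 18.8 ± 1.12 CPM with the combination, against 19.9 ± 0.0659 CPM with DMSO. CDH5, the cadherin of endothelium, averaged 0.924 ± 0.144 CPM with ipatasertib, 0.472 ± 0.122 CPM with tazemetostat and 3.82 ± 0.722 CPM with the combination, against 0.15 ± 0.0857 CPM with DMSO (SD, n = 3 each), with log2 fold changes of 2.53, 1.57 and 4.59 (edgeR adjusted p = 2.19e-05, 0.00747 and 3.26e-11). VWF averaged 0.36 ± 0.133 CPM with ipatasertib, 0.617 ± 0.127 CPM with tazemetostat and 0.355 ± 0.0904 CPM with the combination, against 0.254 ± 0.076 CPM with DMSO and rose with tazemetostat (log2 fold change 1.26, edgeR adjusted p = 0.00816). PECAM1, too low to be tested, was at 0.323 ± 0.0965 CPM with ipatasertib, 0.167 ± 0.0896 CPM with tazemetostat and 0.0717 ± 0.0698 CPM with the combination, against 0.351 ± 0.154 CPM with DMSO. CDH5 and VWF passed the filter on low counts only through treated groups, so their p-values are no separate support beside the counts. The part of other cells in the levels of GJA5 and the endothelial markers was not tested.

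GJB5 belongs to the connexins of the epidermis. GJB5 averaged 10.9 ± 0.604 CPM with ipatasertib, 12 ± 1.03 CPM with tazemetostat and 9.07 ± 0.9 CPM with the combination, against 10.2 ± 0.197 CPM with DMSO (SD, n = 3 each) and rose with tazemetostat (log2 fold change 0.25 ± 0.099, edgeR adjusted p = 0.045). That call ended without ipatasertib A, ipatasertib B, ipatasertib C, tazemetostat B, tazemetostat C, combination B, DMSO A, DMSO B or DMSO C, and with RLE factors, no filter, the replicate letter as a block or DESeq2 (adjusted p from 0.0126 to 0.196 over the alternatives).

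GJB7 was a connexin near the lower limit of measurement. GJB7 had 0.261, 0.801 and 0.552 CPM with ipatasertib, 0.996, 0.448 and 0.624 CPM with tazemetostat and 1.27, 1.44 and 1.74 CPM with the combination, against 0.284, 0.318 and 0.0741 CPM with DMSO. The combination lay above all other libraries and tazemetostat above DMSO, while 1 ipatasertib library was among those of DMSO. GJB7 rose with ipatasertib (log2 fold change 1.23 ± 0.5, edgeR adjusted p = 0.0477), tazemetostat (log2 fold change 1.56 ± 0.47, edgeR adjusted p = 0.00908) and the combination (log2 fold change 2.71 ± 0.43, edgeR adjusted p = 1.00e-05). GJB7 passed the filter on low counts only through treated groups, so its p-values against DMSO are no separate support beside the counts. With the replicate letter as a block the ipatasertib value was 1.23 with an adjusted p of 0.0637. The ipatasertib call ended without ipatasertib B, ipatasertib C, tazemetostat C, combination B, combination C, DMSO A or DMSO C, and with the replicate letter as a block or DESeq2 (adjusted p from 0.00822 to 0.221 over the alternatives). The tazemetostat call ended without DMSO C (adjusted p from 0.00159 to 0.0647 over the alternatives). GJC1, a connexin of heart and vascular muscle, fell with the combination (log2 fold change -0.24 ± 0.092, edgeR adjusted p = 0.029), with values of -0.22 and -0.02 for the single drugs. The GJC1 call ended without combination B, DMSO A or DMSO C, and with scaling to library totals (adjusted p from 0.00501 to 0.114 over the alternatives). GJC3 was not called, at log2 fold changes of -0.42, -0.28 and -0.43 with ipatasertib, tazemetostat and the combination.

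Of the desmosomal cadherins, DSC3, which in stratified epithelia marks the basal layers, rose with each treatment. DSC3 had 180.1, 178 and 163 CPM with ipatasertib, 149.5, 128 and 131 CPM with tazemetostat and 203, 214 and 225 CPM with the combination, against 115, 113 and 114 CPM with DMSO. Each treated group lay above DMSO, and the combination lay above ipatasertib, which lay above tazemetostat. DSC3 rose by 0.61 ± 0.07 with ipatasertib, by 0.26 ± 0.07 with tazemetostat and by 0.91 ± 0.071 with the combination on the log2 scale (edgeR adjusted p = 3.91e-07, 0.00453 and 2.35e-10). The combination exceeded ipatasertib alone (log2 fold change 0.30 ± 0.07, edgeR adjusted p = 0.00128) and tazemetostat alone (log2 fold change 0.65 ± 0.07, edgeR adjusted p = 1.30e-07).

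DSC2 and DSG2 are the desmocollin and the desmoglein found in nearly all desmosomes. DSC2 had 223, 229 and 209.6 CPM with ipatasertib, 278, 236 and 257 CPM with tazemetostat and 240.4, 270.1 and 258 CPM with the combination, against 253, 248 and 261 CPM with DMSO. The ipatasertib libraries lay below DMSO and the other treated groups overlapped it. DSC2 fell with ipatasertib (log2 fold change -0.20 ± 0.069, edgeR adjusted p = 0.0186), with 0.02 and 0.01 for tazemetostat and the combination. This call ended without ipatasertib C or DMSO C, and with scaling to library totals (adjusted p from 0.00146 to 0.07 over the alternatives). DSG2 had 122, 121 and 118 CPM with ipatasertib, 161, 139.9 and 145 CPM with tazemetostat and 144, 167 and 169 CPM with the combination, against 127, 127 and 126 CPM with DMSO. Tazemetostat and the combination lay above DMSO, and ipatasertib lay slightly below it. DSG2 rose with tazemetostat (log2 fold change 0.23 ± 0.07, edgeR adjusted p = 0.00937) and with the combination (log2 fold change 0.34 ± 0.071, edgeR adjusted p = 0.000276), and its value with ipatasertib was -0.07 ± 0.071 (edgeR adjusted p = 0.449). The tazemetostat call of DSG2 ended without tazemetostat A (adjusted p from 0.00114 to 0.0676 over the alternatives). DSC1, a desmocollin of upper epidermal layers, was near 1 CPM and not called, at -0.47, 0.16 and -0.12. The basal desmoglein DSG3 stayed under the filter, at 0.0455 ± 0.00716 CPM with ipatasertib, 0.558 ± 0.137 CPM with tazemetostat and 0.323 ± 0.0572 CPM with the combination, against 0.217 ± 0.145 CPM with DMSO.

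Desmoplakin, which links desmosomes to keratin filaments, was the most abundant member and rose with every treatment. DSP had 1216, 1088 and 1111 CPM with ipatasertib, 1096, 1181 and 1114 CPM with tazemetostat and 1295, 1264 and 1372 CPM with the combination, against 879, 863 and 888 CPM with DMSO. All treated libraries lay above DMSO, and those of the combination lay above both single drugs. DSP was 1.3-fold higher with ipatasertib (log2 fold change 0.38 ± 0.062, edgeR adjusted p = 3.56e-05), 1.29-fold with tazemetostat (log2 fold change 0.37 ± 0.062, edgeR adjusted p = 4.78e-05) and 1.49-fold with the combination (log2 fold change 0.58 ± 0.062, edgeR adjusted p = 3.89e-08). The combination was 0.20 ± 0.062 above ipatasertib and 0.21 ± 0.062 above tazemetostat on the log2 scale (edgeR adjusted p = 0.0106 and 0.00738). The DSP call against ipatasertib ended without ipatasertib B, ipatasertib C or combination C (adjusted p from 2.72e-05 to 0.0888 over the alternatives).

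JUP, or plakoglobin, which is shared by desmosomes and adherens junctions, and PKP4, a relative of the plakophilins found at both junctions, differed little. JUP had 328, 322 and 342 CPM with ipatasertib, 317, 360.2 and 355 CPM with tazemetostat and 374, 328 and 319 CPM with the combination, against 299, 308 and 307 CPM with DMSO. PKP4 had 195, 197 and 194 CPM with ipatasertib, 195, 196 and 188 CPM with tazemetostat and 184, 200.1 and 199.5 CPM with the combination, against 213, 211 and 216 CPM with DMSO. Although every treated library lay above DMSO for JUP and below it for PKP4, the differences were small. JUP rose with tazemetostat (log2 fold change 0.18 ± 0.069, edgeR adjusted p = 0.0404) and with the combination (log2 fold change 0.16 ± 0.069, edgeR adjusted p = 0.0473), and its value with ipatasertib was 0.12 ± 0.069 (edgeR adjusted p = 0.161). PKP4 fell with tazemetostat (log2 fold change -0.15 ± 0.059, edgeR adjusted p = 0.0489), with -0.13 for ipatasertib and -0.13 for the combination (edgeR adjusted p = 0.0862 and 0.0578). The JUP call with tazemetostat ended without ipatasertib A, ipatasertib B, ipatasertib C, tazemetostat B, tazemetostat C, combination B, DMSO A, DMSO B or DMSO C, and with no filter or the replicate letter as a block (adjusted p from 0.000351 to 0.204 over the alternatives). The JUP call with the combination ended without ipatasertib A, ipatasertib B, ipatasertib C, tazemetostat B, tazemetostat C, combination A, combination B, DMSO A, DMSO B or DMSO C, and with RLE factors, no filter, the replicate letter as a block, the A libraries left out, a fit of the 2 groups alone or DESeq2 (adjusted p from 0.00813 to 0.265 over the alternatives). The PKP4 call ended without tazemetostat C, combination C, DMSO A, DMSO B or DMSO C, and with scaling to library totals, no filter, the stricter filter or the replicate letter as a block (adjusted p from 0.00942 to 0.324 over the alternatives).

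The plakophilins, which cluster desmosomal proteins in the plaque, went in different directions. PKP2, the plakophilin of heart and simple epithelia, averaged 56.9 ± 2.2 CPM with ipatasertib, 62.3 ± 4.35 CPM with tazemetostat and 78.6 ± 6.29 CPM with the combination, against 47.7 ± 2.68 CPM with DMSO (SD, n = 3 each), and the combination lay above all other libraries. PKP2 rose with ipatasertib (log2 fold change 0.25 ± 0.077, edgeR adjusted p = 0.0101), tazemetostat (log2 fold change 0.38 ± 0.076, edgeR adjusted p = 0.000315) and the combination (log2 fold change 0.72 ± 0.077, edgeR adjusted p = 4.54e-08). Its ipatasertib call ended without ipatasertib A or DMSO C (adjusted p from 0.00058 to 0.0594 over the alternatives). PKP3, present in most epithelia, averaged 65.1 ± 3.45 CPM with ipatasertib, 91.4 ± 8.82 CPM with tazemetostat and 57.7 ± 7.06 CPM with the combination, against 90.7 ± 2.15 CPM with DMSO, and the groups with ipatasertib lay below DMSO without overlap. It fell with ipatasertib (log2 fold change -0.48 ± 0.083, edgeR adjusted p = 6.72e-05) and with the combination (log2 fold change -0.65 ± 0.085, edgeR adjusted p = 8.08e-07), and tazemetostat gave 0.01 ± 0.082 (edgeR adjusted p = 0.913). PKP1, of stratified epithelium, was at 0.102 ± 0.0637 CPM with ipatasertib, 0.688 ± 0.347 CPM with tazemetostat and 0.263 ± 0.0487 CPM with the combination, against 0.405 ± 0.0498 CPM with DMSO, which for ipatasertib are 4, 1 and 2 counts and for DMSO 10, 10 and 11 counts. At these few reads it fell with ipatasertib (log2 fold change -1.89 ± 0.58, edgeR adjusted p = 0.0107).

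**Figure D3:**
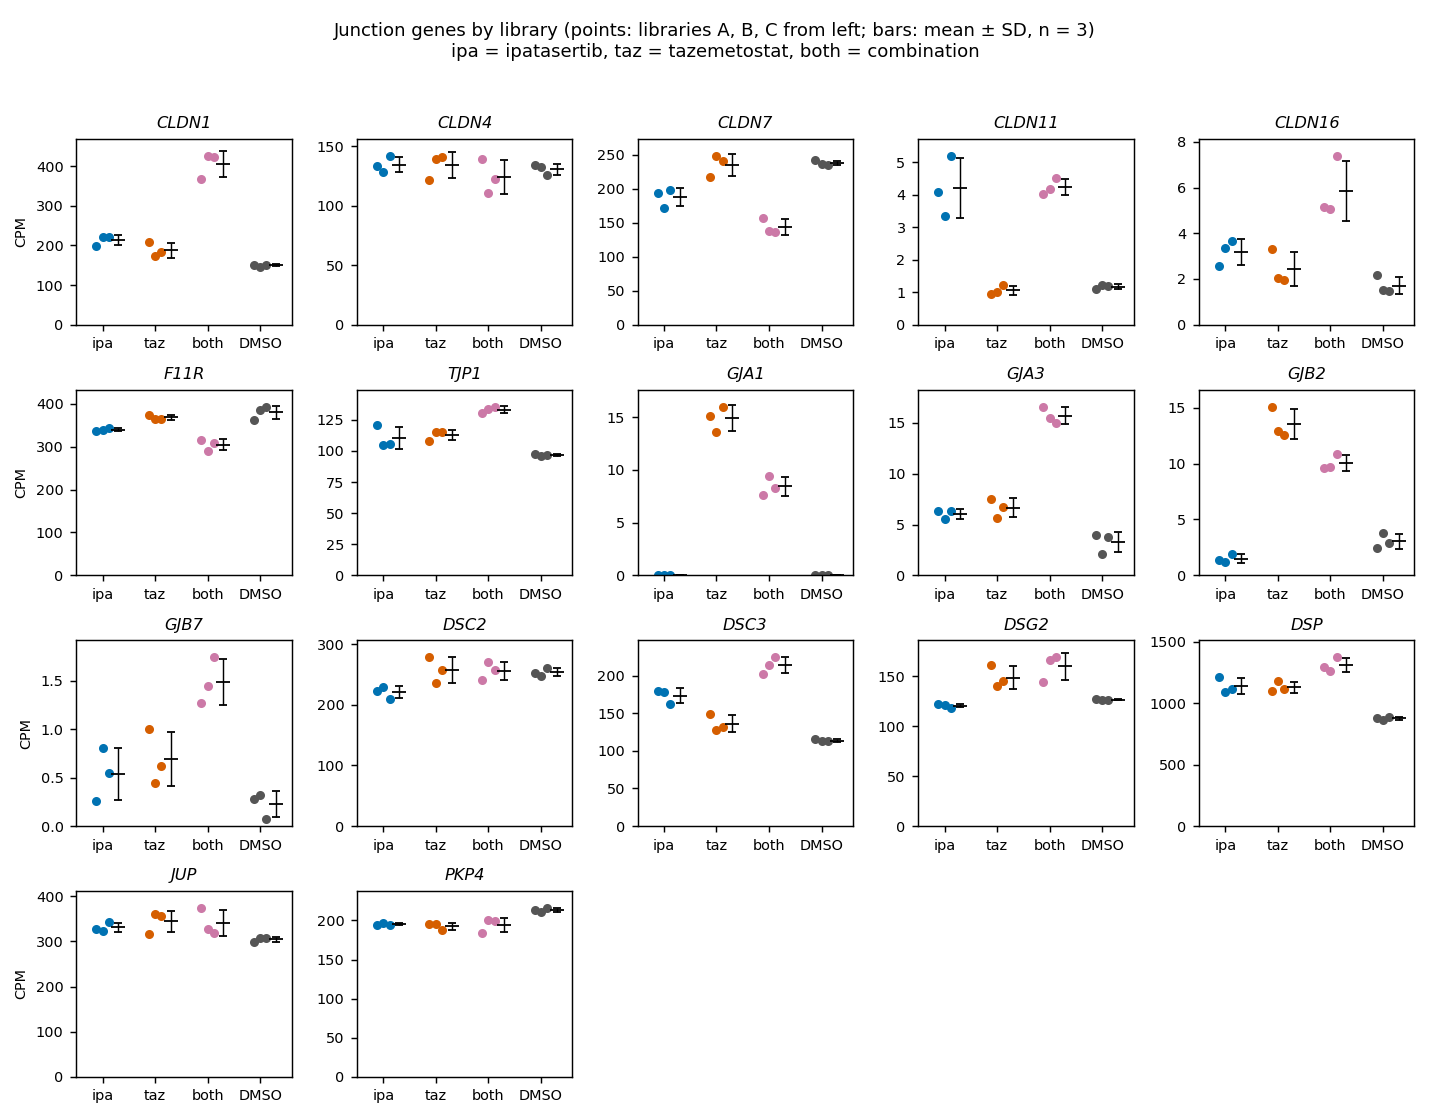
CPM of 17 members in every library (points, A to C from left) with mean and SD (bars, n = 3) for ipatasertib, tazemetostat, the combination and DMSO; each panel has its own axis from 0. CLDN1 is highest with the combination, at 368 to 426 CPM, GJA1 has reads with tazemetostat and with the combination only, and GJB2 has its lowest values with ipatasertib, at 1.17 to 1.93 CPM.

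The combination was also set against each single drug. Against ipatasertib, 20 of the 40 tested members were called (50%), 15 higher and 5 lower, beside 44.9% of all genes (24.2% higher, 20.7% lower). The number lower was 3 without ipatasertib C, combination B or combination C, and 8 without combination A. Against tazemetostat, 25 members were called (62.5%), 15 higher and 10 lower, beside 46.3% of all genes (23.2% higher, 23.1% lower). Median log2 fold changes of the members were 0.12 and -0.03, beside 0 over all genes in both comparisons. CLDN1, CLDN12, CLDN16, GJA3, GJB7, DSC3, DSP, PKP2 and TJP1 were among those higher with the combination than with either drug alone. CLDN7 and F11R were lower than with either drug alone. In the comparison with ipatasertib, CLDN10 lost its call without ipatasertib A or combination C. CLDN3 lost its call without ipatasertib B, ipatasertib C, combination B or combination C. DSC2 lost its call without ipatasertib C or combination B. DSP lost its call without ipatasertib B, ipatasertib C or combination C. F11R lost its call without ipatasertib C, combination B or combination C, and with scaling to library totals, the replicate letter as a block or a fit of the 2 groups alone. In the comparison with tazemetostat, CLDN2 lost its call without tazemetostat B, tazemetostat C, combination A, combination B, combination C or DMSO B, and with the replicate letter as a block, a fit of the 2 groups alone or DESeq2. GJA5 lost its call without tazemetostat C, and with no filter or a fit of the 2 groups alone. GJB7 lost its call without tazemetostat B or combination C. PKP1 lost its call without tazemetostat A, tazemetostat B, combination A or combination C, and with the A libraries left out or DESeq2.

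The interaction asks whether the effect of both drugs departs from the sum of the single effects on the log2 scale, that is, whether the tazemetostat effect differs in the presence of ipatasertib. It was called for 4 of 40 members (10%), 1 higher and 3 lower, beside 12% of all genes (5.96% higher, 6.01% lower). CLDN1 was above the sum by 0.59 ± 0.11 (edgeR adjusted p = 0.00222), a call that held under every alternative tried. CLDN7, CLDN10 and GJB5 lay below it, with interaction values of -0.37 ± 0.1, -0.38 ± 0.12 and -0.50 ± 0.15 (edgeR adjusted p = 0.024, 0.0469 and 0.0309). The call of CLDN7 ended without ipatasertib A, ipatasertib C, tazemetostat B, tazemetostat C, combination B, combination C, DMSO B or DMSO C, and with the replicate letter as a block (adjusted p from 2.33e-05 to 0.0867 over the alternatives). That of CLDN10 ended without ipatasertib A, ipatasertib B, ipatasertib C, tazemetostat A, tazemetostat B, tazemetostat C, combination A, combination B, DMSO B or DMSO C, and with the replicate letter as a block (adjusted p from 0.0158 to 0.132 over the alternatives). That of GJB5 ended without ipatasertib A, ipatasertib B, tazemetostat B, tazemetostat C, combination B, DMSO A, DMSO B or DMSO C, and with the replicate letter as a block (adjusted p from 0.00465 to 0.117 over the alternatives). For GJA1 the interaction cannot be estimated, because neither ipatasertib nor DMSO had a read. The other 35 tested members had interaction values from -0.60 to 0.55. With libraries scaled to their totals, the interaction calls over all genes split into 694 higher and 1369 lower, in place of 869 and 875.

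The number of members called in the interaction varied with the libraries. Called higher were 2 without ipatasertib A or combination A and 4 without tazemetostat A, in place of 1. Called lower were 5 without tazemetostat A and 1 without ipatasertib B or ipatasertib C, in place of 3. No member was called lower by edgeR without ipatasertib A, tazemetostat B, tazemetostat C, combination B, DMSO B or DMSO C, where 5 or 6 were lower at an unadjusted p under 0.05, and DESeq2 on all libraries called 4.

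**Figure D4:**
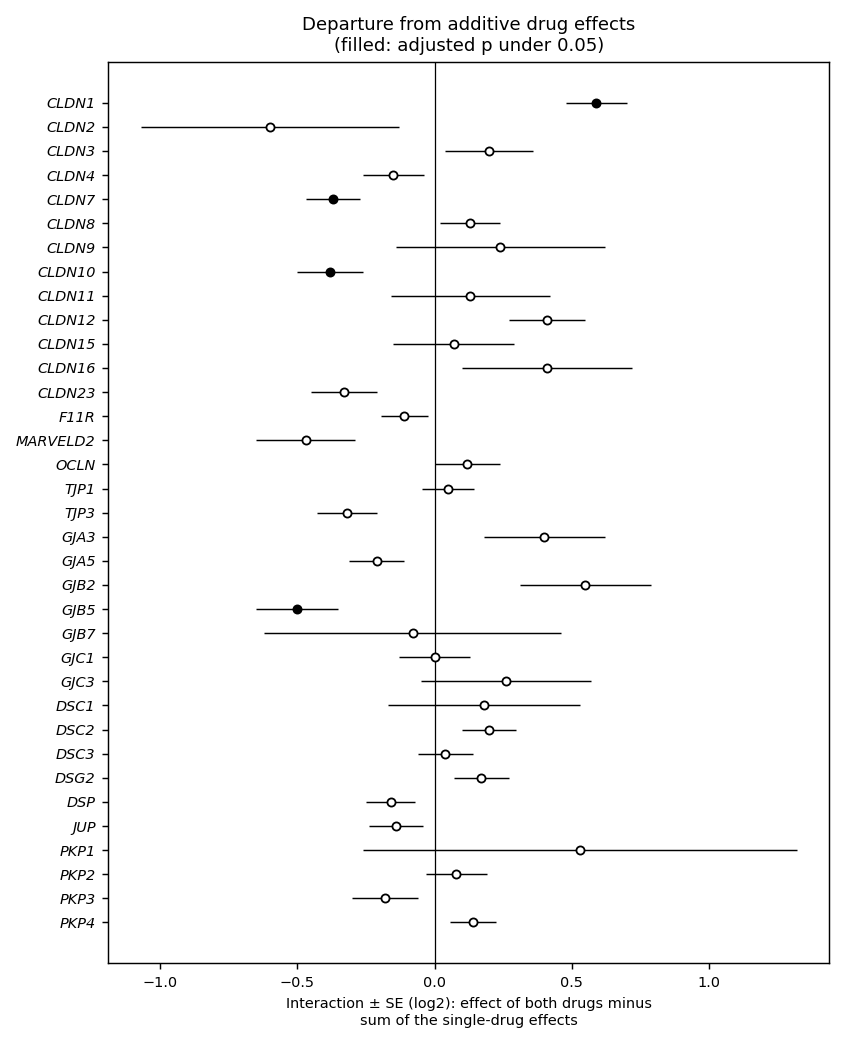
Interaction value on the log2 scale with its standard error for 35 tested members, as the effect of both drugs minus the sum of the single effects; filled points have an adjusted p under 0.05. CLDN1 stands to the right at 0.59, and CLDN7, CLDN10 and GJB5 to the left at -0.37, -0.38 and -0.50; GJA1 is not drawn.

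Neighbouring parts of the same contacts were counted from lists of genes, to be read beside the 47.1%, 47.2% and 64.4% of all genes called with ipatasertib, tazemetostat and the combination. Of 11 tested adherens junction genes, 4 were higher and 3 lower with ipatasertib, 4 and 1 with tazemetostat, and 5 and 5 with the combination (63.6%, 45.5% and 90.9% called). The nectin PVRL1 had log2 fold changes of -0.51, 0.34 and -0.79 with ipatasertib, tazemetostat and the combination (edgeR adjusted p = 3.82e-05, 0.00215 and 4.78e-08), and MLLT4, or afadin, which binds nectins to actin, had 0.24, 0.12 and 0.47 (edgeR adjusted p = 0.00226, 0.102 and 5.92e-07). CTNND1, the catenin that stabilises cadherins, had 0.52, 0.34 and 0.59 (edgeR adjusted p = 0.0103, 0.0916 and 0.00388). Of 22 tight junction scaffold and polarity genes, 7 were higher and 2 lower with ipatasertib, 9 and 2 with tazemetostat, and 13 and 3 with the combination (40.9%, 50% and 72.7% called). CDH2 in the adherens list and ILDR2 in the scaffold list passed the filter only through the groups given tazemetostat, where both were called higher. CGNL1, or paracingulin, was at 8.45 ± 1.02 CPM with ipatasertib, 38.9 ± 4.72 CPM with tazemetostat and 29.4 ± 2.73 CPM with the combination, against 10.5 ± 0.807 CPM with DMSO (SD, n = 3 each), with -0.32, 1.89 and 1.49 (edgeR adjusted p = 0.0335, 2.89e-12 and 1.13e-10). The scaffolds MAGI1 and MAGI3 had 0.61, 0.11 and 0.74 and -0.48, 0.08 and -0.76 with the 3 treatments, so that they differed in direction with ipatasertib and with the combination.

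Of 12 desmosome-associated and hemidesmosome genes, 5 were higher and 3 lower with ipatasertib, 5 and 2 with tazemetostat, and 7 and 4 with the combination (66.7%, 58.3% and 91.7% called, beside 47.1%, 47.2% and 64.4% of all genes). ITGB4, the integrin of hemidesmosomes, was at 397 ± 18.6 CPM with ipatasertib, 268 ± 24.6 CPM with tazemetostat and 516 ± 52.7 CPM with the combination, against 192 ± 6.95 CPM with DMSO (SD, n = 3 each), and rose with each treatment (edgeR adjusted p = 6.93e-10, 3.11e-05 and 8.14e-13). The basal keratin KRT5, to which desmosomes and hemidesmosomes are anchored, was at 1171 ± 67.3 CPM with ipatasertib, 1022 ± 39.9 CPM with tazemetostat and 443 ± 35.7 CPM with the combination, against 1718 ± 74.3 CPM with DMSO, and fell with each treatment (edgeR adjusted p = 9.28e-07, 8.27e-09 and 4.40e-16). KRT14, its partner, had log2 fold changes of -0.09, -0.94 and -1.38 (edgeR adjusted p = 0.274, 2.34e-10 and 2.39e-13). COL17A1 of this list, which was called higher with each treatment, passed the filter only through treated groups. Of the pannexins and further connexins 3 were tested, and 2 of them rose with tazemetostat and 1 with the combination; PANX1, a channel related to connexins, had -0.08, 0.34 and 0.14 (edgeR adjusted p = 0.553, 0.00778 and 0.24). Of 15 transcription factors known to control junction genes, 3 were higher and 2 lower with ipatasertib, 8 and 2 with tazemetostat, and 8 and 2 with the combination (20%, 53.3% and 53.3% higher, beside 24%, 25.9% and 34.4% of all genes, and 13.3% lower in each, beside 23.1%, 21.3% and 30%). SNAI2, TWIST1 and ZEB1, all called higher with tazemetostat and the combination, passed the filter only through the groups given tazemetostat. The shares called higher thus rest partly on them. GRHL3, a grainyhead factor of barrier epithelia, had -0.77, 0.63 and -0.41 (edgeR adjusted p = 1.38e-06, 6.75e-06 and 0.00112), KLF4, a factor of barrier formation in skin, 0.35, 1.19 and 1.62 (edgeR adjusted p = 0.0373, 6.43e-08 and 2.15e-10), and TWIST2 0.71, -0.67 and -0.40 (edgeR adjusted p = 6.30e-05, 0.000461 and 0.0234).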

How the data were processed

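For each of the 12 libraries the authors deposited a table of raw counts, 1 row per gene symbol. The submitters' processing notes name STAR, SAMtools, HTSeq, DESeq2 and the build hg19; no source used here gives their versions, the annotation or the strand setting. The kits were RNeasy Plus for RNA and Kapa Hyper Prep for libraries, per the labels. The authors' normalized table of the series was not used. Each table has 5 closing rows that name no gene; they held 32 to 39.5% of the counted reads and entered neither library sizes nor tests.

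In R 4.3.3, edgeR 4.0.16 was run with filterByExpr at a minimum count of 10, TMM factors, a single fit of group means to all 12 libraries (residual degrees of freedom 8) and robust quasi-likelihood tests with Benjamini-Hochberg adjustment over 14571 genes at 0.05. CPM values use TMM-scaled totals, and standard errors follow from the F statistic. The procedure was tested on simulated counts that had the same spread for every gene and library. Those counts held no libraries that stood apart, so they do not cover the A libraries here. Folds against groups without a read are lower bounds that put 3 counts in the group as a whole. CPM per kb uses the union of exons of the GENCODE basic annotation of GRCh38, and promoter windows are from RefSeq (GRCh38.p14), which covered 40 of the 59 members.

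Values in every library are given for members called against DMSO with an absolute log2 fold change of at least 1 and a highest group mean of at least 1 CPM, and for the 12 with the highest mean CPM. The library values of GJA5 and TJP3 and the other members named were added after their values were seen. Of each neighbouring list, up to 3 called genes with the largest change and at least 5 CPM are named. Some members enter the counts but are not reported here by name. The members and lists were chosen with earlier results of these data known. Alternatives were RLE factors, library totals, unfiltered genes, at least 50 counts in 3 libraries, the replicate letter as a block, the A libraries left out, each library left out, the 2 groups of a comparison alone, and DESeq2 1.42.0.

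Same-letter libraries of ipatasertib and DMSO deviated together (r = 0.412 for A, 0.138 for B and 0.115 for C, over the bound of 0.1 in 3 of 3). Only 1 of 3 matched its own letter best, and the A library stood apart in every group. Whether the letters mark pairs is therefore not settled. The letters enter as a block only in an alternative, and all p-values of the report come from the fit without it. Between the combination and ipatasertib 1 pair was over this bound (r = -0.147 for A, 0.334 for B and -0.357 for C). In the remaining comparisons 0 pairs were over it, with r from -0.612 to 0.0919.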

Additional observations from a re-analysis of the deposited data

Results flagged for a closer look

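The effect of tazemetostat on 4 of 40 tested members (10%, beside 12% of all genes) differed with the presence of ipatasertib, by the interaction in edgeR's quasi-likelihood test over 14571 genes. For CLDN1 the log2 difference was 0.59: tazemetostat changed it by 0.92 beside ipatasertib and by 0.33 without it (edgeR adjusted p of the difference 0.00222), and this held in every alternative tried. CLDN10 gave -0.38, from 0.29 beside ipatasertib and 0.67 without it (edgeR adjusted p = 0.0469). CLDN7 gave -0.37, from -0.39 and -0.02 (edgeR adjusted p = 0.024). GJB5 gave -0.50, from -0.25 and 0.25 (edgeR adjusted p = 0.0309). The differences of CLDN10, CLDN7 and GJB5 were no longer called with the replicate letter as a block or without several single libraries. No test for a single outlying value was run within groups of 3 libraries.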

How the results depend on the processing

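No call of a member against DMSO, between the combination and a drug, or in the interaction changed its direction under any alternative tried. Counts of members called differed by more than 1.5 times in these cases, and the cause was not tested. Scaling to library totals gave 5 members lower with ipatasertib (8 in the report), 2 lower with tazemetostat (4) and 5 lower in the interaction (3). Without a filter 13 members were lower with ipatasertib, and the interaction had 2 higher and 5 lower; more genes were tested there. With the A libraries left out, 9 members were lower with the combination than with ipatasertib (5), and the interaction had 7 higher (1) and 11 lower; over all genes it then had 2605 higher and 2847 lower calls, in place of 869 and 875. With the replicate letter as a block, edgeR called 1 member higher and 0 lower in the interaction, where 6 were lower at an unadjusted p under 0.05 and DESeq2 called 4; over all genes the block gave 533 and 479. The letters met the pairing bound for ipatasertib against DMSO alone, where 1 of 3 matched its own letter best; there the block gave 13 members higher and 7 lower, and it ended the calls of F11R and GJB7 and no other. For the other comparisons it gave 13 and 3 (tazemetostat), 17 and 9 (combination), 15 and 4 (combination against ipatasertib) and 14 and 9 (combination against tazemetostat).

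Leaving out 1 library at a time gave 11 to 16 members higher and 6 to 12 lower with ipatasertib, 11 to 17 and 2 to 5 with tazemetostat, 17 to 18 and 7 to 11 with the combination, 13 to 16 and 3 to 8 against ipatasertib, 13 to 15 and 9 to 10 against tazemetostat, and 1 to 4 and 0 to 5 in the interaction. For the named members, 98 values under an alternative lost their call, 33 gained one and 2112 kept their side of the threshold. Depth limits the genes under 1 CPM most: GJB7 and PKP1, for example, rest on few reads per library.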

Other observations

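Several low genes of the neighbouring lists, picked after their values were seen, had next to no reads without tazemetostat. CDH2, the cadherin of neural and mesenchymal cells, was at 0.0455 ± 0.00716 CPM with ipatasertib, 2.89 ± 0.37 CPM with tazemetostat and 3.07 ± 0.356 CPM with the combination, against 0.037 ± 0.0642 CPM with DMSO (SD, n = 3 each). TWIST1, a transcription factor of mesenchymal cells, was at 0.0131 ± 0.0228 CPM with ipatasertib, 1.9 ± 0.379 CPM with tazemetostat and 4.94 ± 1.3 CPM with the combination, against no read (0 CPM) with DMSO. SNAI2, which represses epithelial junction genes, had no read (0 CPM) with ipatasertib, 0.545 ± 0.112 CPM with tazemetostat and 0.789 ± 0.503 CPM with the combination, against no read (0 CPM) with DMSO, and ZEB1, of similar function, was at 0.0263 ± 0.0455 CPM with ipatasertib, 0.376 ± 0.128 CPM with tazemetostat and 0.403 ± 0.219 CPM with the combination, against 0.0995 ± 0.0493 CPM with DMSO. As these genes were chosen for this pattern, their values are a description with no test. Other genes of the same list differed from it: TWIST2 was at 7.37 ± 0.611 CPM with ipatasertib, 2.8 ± 0.32 CPM with tazemetostat and 3.4 ± 0.254 CPM with the combination, against 4.48 ± 0.339 CPM with DMSO, and SNAI1 was at 0.6 ± 0.37 CPM with ipatasertib, 0.606 ± 0.139 CPM with tazemetostat and 0.588 ± 0.41 CPM with the combination, against 0.782 ± 0.216 CPM with DMSO. The epithelial cadherin CDH1 was at 121 ± 2.89 CPM with ipatasertib, 172 ± 8.1 CPM with tazemetostat and 132 ± 5.31 CPM with the combination, against 151 ± 1.78 CPM with DMSO, with log2 fold changes of -0.32, 0.19 and -0.19 against DMSO (edgeR adjusted p = 0.000233, 0.0159 and 0.0106).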
